A study of Mus musculus with 8 samples.

Results

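Transcripts of endothelial cells were examined in lung mesenchymal cells that had been sorted to exclude endothelium. The genes are 10 established endothelial markers, Pecam1, Cdh5, Kdr, Flt1, Tek, Tie1, Vwf, Emcn, Cldn5 and Prox1, and all 10 were found by symbol among the 31607 genes of the authors' deposited table. They were chosen as markers of the lineage, with earlier results of these data known. HhipCKO mice carried floxed alleles of Hhip, a membrane protein that limits hedgehog signalling, together with creER drivers that include Myh11-creER, whose promoter is active in smooth muscle cells. The name of the deposited contrast carries a further abbreviation, Uct, beside that for the Myh11 driver, and does not spell it out. Deletion of Hhip was therefore not necessarily confined to smooth muscle cells. Controls had the same floxed Hhip alleles and no driver. Mice of both groups were adult and received tamoxifen, which activates creER, so the groups differ in the drivers as well as in Hhip. Live cells lacking CD45, CD31 and Epcam were sorted, per the series' design text, while the protocol for RNA extraction mentions cultured cells. Bulk RNA sequencing gave 4 HhipCKO and 4 Control libraries. The labels do not say whether each library came from a separate mouse, so the spread behind the p-values may be partly technical. The deposited table lists a single contrast, HhipCKO over Control, without values or depths of individual libraries.

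Endothelial cells line blood and lymphatic vessels. CD31, the product of Pecam1, and VE-cadherin, the product of Cdh5, sit at the contacts between them, and the sort removed cells by the first of these proteins. VEGF receptors (Kdr and Flt1) and Tie receptors (Tek and Tie1) are the principal receptor tyrosine kinases of the lineage, and both are served by ligands that mesenchymal cells and pericytes secrete. The sort acts on surface CD31 protein, whereas the libraries measure RNA.

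The targeted gene checks the labels: the authors' deposited table lists Hhip at -2.62 ± 0.32 (log2 fold change ± SE, adjusted p = 9.55e-13, DESeq Wald test). All 12 mesenchymal markers examined were abundant, from 9551 to 175390 mean normalized counts per kilobase. Per kilobase here means that the mean over all 8 libraries was divided by the length of the longest annotated transcript, so that levels of different genes can be set side by side. Transcripts of other cell types were present too: the surfactant gene Sftpc of alveolar type 2 cells stood at 131088 per kilobase, next to 130875 for the collagen gene Col1a1. The mean of Sftpc covers libraries that differed widely, since its log2 fold change had an SE of 1.27, against 0.20 for Col1a1. A few libraries may therefore have set it.

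All endothelial members stood far below the mesenchymal markers in level, and all but Kdr and Tek also lay below the median of all genes tested. Counted per kilobase, the 10 members summed to 2953, with a median of 98.0, against a median of 623 over all genes tested and of 45247 over the mesenchymal markers. Kdr and Tek made up 74.8% of that sum. The other 8 members lay between 11.2 and 237 per kilobase. None of the 10 was listed at 0.

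Both VEGF and Tie receptor pairs were split in level, and the promoter sequences of these 4 receptors are shown because they mark the genes on which that contrast rests. They come from RefSeq on GRCm38.p6, 250 bases before to 50 after the annotated start, read 5′ to 3′ on the gene's strand. Capitals mark the core of ETS factor binding sites, GGAA or its reverse complement TTCC. ETS factors such as Erg and Fli1 are known regulators of endothelial genes.
Kdr, chr5:75978406-75978705, minus strand: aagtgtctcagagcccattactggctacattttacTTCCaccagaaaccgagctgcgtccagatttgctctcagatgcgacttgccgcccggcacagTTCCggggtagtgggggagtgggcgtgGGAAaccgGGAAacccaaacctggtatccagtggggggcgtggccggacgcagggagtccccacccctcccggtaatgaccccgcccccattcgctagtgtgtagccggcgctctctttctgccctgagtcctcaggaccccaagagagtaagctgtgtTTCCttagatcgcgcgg
Flt1, chr5:147725962-147726261, minus strand: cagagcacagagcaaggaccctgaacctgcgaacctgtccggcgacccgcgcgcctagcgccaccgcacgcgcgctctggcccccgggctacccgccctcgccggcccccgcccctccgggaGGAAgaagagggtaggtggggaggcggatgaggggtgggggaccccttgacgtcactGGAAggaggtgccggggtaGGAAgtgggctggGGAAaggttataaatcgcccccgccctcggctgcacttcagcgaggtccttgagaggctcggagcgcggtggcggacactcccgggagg
Tek, chr4:94739039-94739338, plus strand: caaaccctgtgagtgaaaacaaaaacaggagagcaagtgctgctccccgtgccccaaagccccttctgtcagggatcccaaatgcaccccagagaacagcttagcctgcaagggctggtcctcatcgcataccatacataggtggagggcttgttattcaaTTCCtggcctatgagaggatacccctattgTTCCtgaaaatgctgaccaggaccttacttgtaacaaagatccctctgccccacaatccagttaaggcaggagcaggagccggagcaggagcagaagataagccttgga
Tie1, chr4:118489800-118490099, minus strand: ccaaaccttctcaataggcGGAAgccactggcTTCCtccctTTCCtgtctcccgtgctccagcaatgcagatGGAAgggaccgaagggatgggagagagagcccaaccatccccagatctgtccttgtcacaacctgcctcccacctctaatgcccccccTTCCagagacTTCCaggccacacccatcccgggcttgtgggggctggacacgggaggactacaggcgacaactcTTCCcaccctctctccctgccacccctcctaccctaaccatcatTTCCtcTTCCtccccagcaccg
The core letters occurred 5 times in the Kdr window, 4 times in that of Flt1, 2 times in that of Tek and 9 times in that of Tie1. Among 32851 promoters of the same length, 96.0% held at least 1 such match, with a median of 3, so the match alone sets none of these genes apart. The longer form AGGAAG, with CTTCCT on the other strand, contains the core and occurred 2 times each in the Flt1 and Tie1 windows and in none of the Kdr and Tek windows, while 35.4% of all promoters held it. Among the other members with a window, Emcn held it 2 times, while Cldn5 and both starts of Prox1 held none. Whether either motif bears on the levels of these genes was not tested. In all, 7 of the 10 members had a promoter in the RefSeq table, those missing being Pecam1, Cdh5 and Vwf.

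Kdr, the main signalling receptor for VEGF-A, had a mean normalized count of 6275 in the authors' deposited table, or 1059 per kilobase. Flt1, a receptor that binds VEGF-A and placental growth factor and acts largely as a decoy, had 522 in the authors' deposited table, or 75.7 per kilobase. The level of Kdr was thereby 13.99 times that of Flt1 per kilobase. Tek, which encodes Tie2, the receptor for the angiopoietins, had a mean of 5344 in the authors' deposited table and 1148 per kilobase. Its partner Tie1, an orphan receptor that forms complexes with Tie2, had 197 in the authors' deposited table and 46.5 per kilobase, so that Tek stood 24.7 times higher. Among the genes tested, Tek and Kdr ranked at percentiles 64.9 and 62.8 by level per kilobase, whereas Flt1 and Tie1 ranked at 17.2 and 11.2. No value per library was at hand, so these ratios of levels carry no error.

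The junction and surface genes were lower than Kdr and Tek. Pecam1 stood at 237 per kilobase, percentile 31.9 of the genes tested. Cldn5, the tight junction protein of endothelium, followed at 161, and Cdh5 at 117 per kilobase. Emcn, which encodes the sialomucin endomucin of capillaries and veins, was the lowest member at 11.2 per kilobase. Vwf, the von Willebrand factor that endothelial cells and platelets store, had 79.4 per kilobase, and Prox1, the transcription factor that specifies lymphatic endothelium, had 17.0. Kdr exceeded Pecam1 4.47-fold and Tek exceeded it 4.84-fold per kilobase. These levels depend on the length used, since the longest Pecam1 transcript has 3441 bases and all its annotated exons together have 6228. With all exons merged, a choice made after seeing the data, Tek exceeded Pecam1 8.66-fold and Kdr exceeded it 5.30-fold. Cldn5 then stood above Pecam1, at 161 against 131 per kilobase, with Cdh5 at 111, and Tie1 at 40.1 stood just above Flt1 at 38.7.

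**Figure D1:**
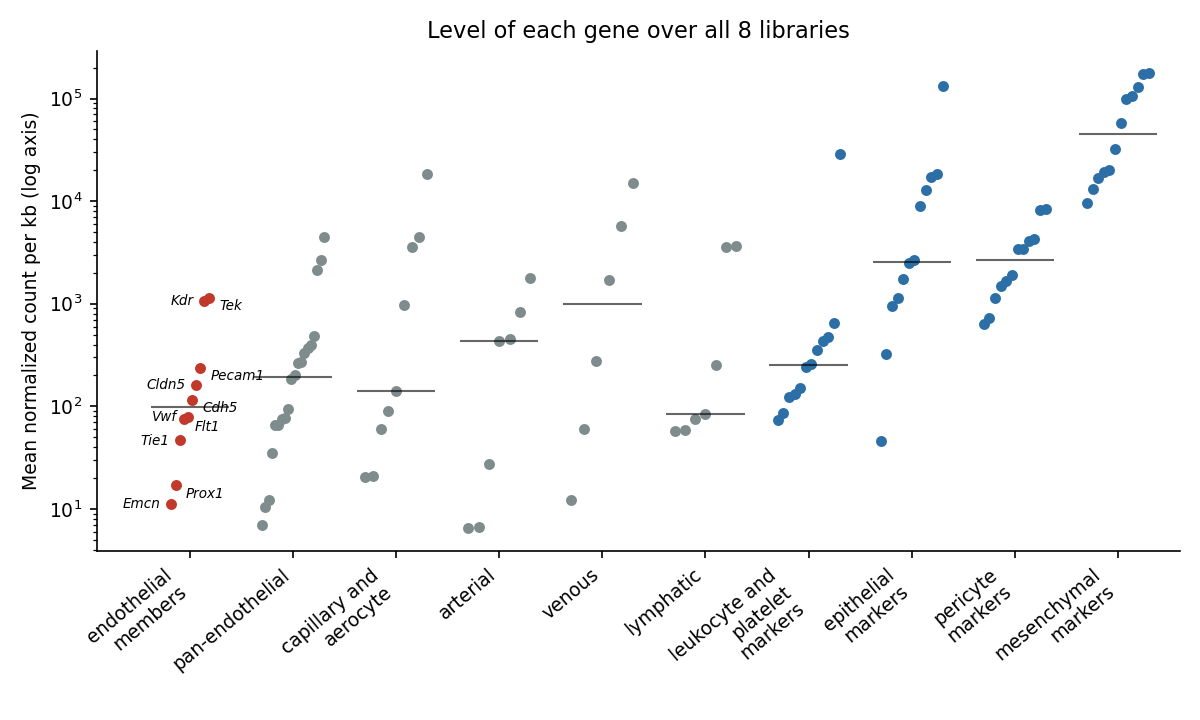
Mean normalized count per kilobase (log axis, mean over all 8 libraries) of each gene, by list; points are genes and horizontal lines are list medians. Kdr and Tek stand above the other 8 members, which lie between 11.2 and 237, and the mesenchymal markers start at 9551.

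The genes of the 3 proteins used for the sort had levels between 131 and 321 counts per kilobase, with Pecam1 between the other two. Pecam1 had 237, Ptprc, which encodes CD45, had 131 and Epcam had 321. With all exons merged Ptprc stood at 41.0, Pecam1 at 131 and Epcam at 298. Per kilobase, the mesenchymal receptor Pdgfra stood 136 times above Pecam1 and 277 times above Cdh5, but 30.5 times above Kdr and 28.1 times above Tek. Sftpc was 553 times the level of Pecam1, by a mean over libraries that differed widely in Sftpc. All of these are ratios of levels over both groups together.

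No endothelial member passed the test of HhipCKO against Control libraries at an adjusted p of 0.05. Adjusted p-values were listed for 9 members, and 0 of them passed the authors' DESeq Wald test, where 6.98% of 17469 genes did, 3.06% upwards and 3.92% downwards. At an unadjusted p of 0.05 the count was 0 of 10, against 13.5% of the 31457 genes with a p-value. Emcn has no adjusted p because its mean of 39.5 lies below 42.1, the lowest mean for which the authors' deposited table lists one. Values were nonetheless mostly negative, 8 of 10, with a median log2 fold change of -0.33 over the 10 and -0.27 over the 9 tested, against 0.02 over all genes tested, of which 47.3% were negative. Which of the sorted cells these transcripts came from was not tested. In bulk RNA, a change in the number of cells that express a gene and in RNA per cell cannot be told apart.

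For each member the level in either group was derived from the deposited mean and fold change, taking the mean as that of 2 groups of 4, and is called the implied level. Pecam1 had an implied level of 704 normalized counts in HhipCKO libraries and 928 in Control libraries. The authors' deposited table lists it at -0.40 ± 0.25 (log2 fold change ± SE here and below, adjusted p = 0.356, DESeq Wald test), and the 95% interval ran from -0.88 to 0.09. CD31 is carried by platelets and many leukocytes as well as by endothelium.

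Cdh5 came closest to the threshold. VE-cadherin is the adhesion molecule of endothelial adherens junctions and is more restricted to the lineage than CD31. Its implied level was 351 in HhipCKO and 581 in Control libraries. By the authors' deposited table it stood at -0.73 ± 0.37 (unadjusted p = 0.0525, adjusted p = 0.237, DESeq Wald test), and the 95% interval ran from -1.46 to 0.01, just reaching 0. Cldn5, the third junction gene, had 191 in HhipCKO and 266 in Control libraries. Its value by the authors' deposited table was -0.48 ± 0.44 (adjusted p = 0.575, DESeq Wald test). Hence all 3 junction genes among the members were lower in HhipCKO libraries by point value, and each interval included 0. Esam, an adhesion gene outside the members, had a value of 0.02. The surface sialomucin gene Emcn, at 30.4 in HhipCKO and 48.6 in Control libraries, is listed by the authors' deposited table at -0.68 ± 0.70 (unadjusted p = 0.334, DESeq Wald test). Its interval, from -2.05 to 0.69, is the widest of the 10.

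The 4 receptors gave values on both sides of 0. Kdr had an implied level of 5783 in HhipCKO and 6768 in Control libraries, and Flt1 had 474 in HhipCKO and 570 in Control libraries. The authors' deposited table lists Kdr at -0.23 ± 0.34 and Flt1 at -0.27 ± 0.28 (adjusted p = 0.762 for Kdr and 0.632 for Flt1, DESeq Wald test). The 2 VEGF receptors therefore had nearly equal point values despite their difference in level. Tek had nearly the same implied level in both groups, 5443 in HhipCKO and 5246 in Control libraries, which the authors' deposited table lists as 0.05 ± 0.34 (adjusted p = 0.955, DESeq Wald test). Tie1, by contrast, had the lowest value of the 10, with 146 in HhipCKO and 249 in Control libraries and a listing of -0.77 ± 0.49 (adjusted p = 0.367, DESeq Wald test) by the authors' deposited table. The 95% intervals of Tek, from -0.62 to 0.72, and of Tie1, from -1.73 to 0.19, overlap, and their difference was not tested.

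Vwf was the other member with a positive value. It had 752 in HhipCKO and 650 in Control libraries, and the authors' deposited table lists 0.21 ± 0.36 (adjusted p = 0.796, DESeq Wald test). Prox1, the lymphatic gene, had 132 in HhipCKO and 137 in Control libraries, and its listing by the authors' deposited table was -0.06 ± 0.47 (adjusted p = 0.965, DESeq Wald test). Ordered from lowest to highest, the log2 fold changes ran Tie1, Cdh5, Emcn, Cldn5, Pecam1, Flt1, Kdr, Prox1, Tek, Vwf, and no neighbours in that order were further apart than their SEs.

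**Figure D2:**
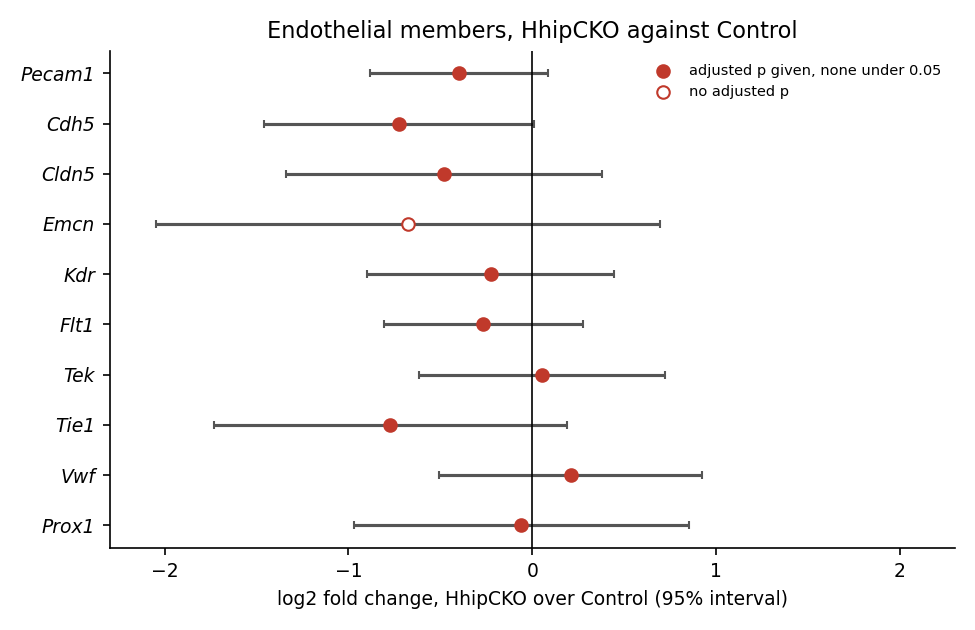
Log2 fold change of HhipCKO over Control for each endothelial member with its 95% interval, from the authors' deposited table; the open point, Emcn, has no adjusted p. All 10 intervals include 0, and 8 of 10 points lie below it.

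Across all genes tested, the median log2 fold change was -0.14 among the 4363 genes with the longest transcripts and 0.17 among the 4363 with the shortest. With that trend removed the median of the 9 tested members was -0.10 in place of -0.27. Prox1 then turned positive, at 0.15, Kdr and Flt1 stood at -0.10 each, Tek at 0.11 and Vwf at 0.44. Cldn5 moved further down, from -0.48 to -0.62, while Cdh5, Tie1 and Pecam1 kept values of -0.71, -0.74 and -0.41. None of the members passed.

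**Figure D3:**
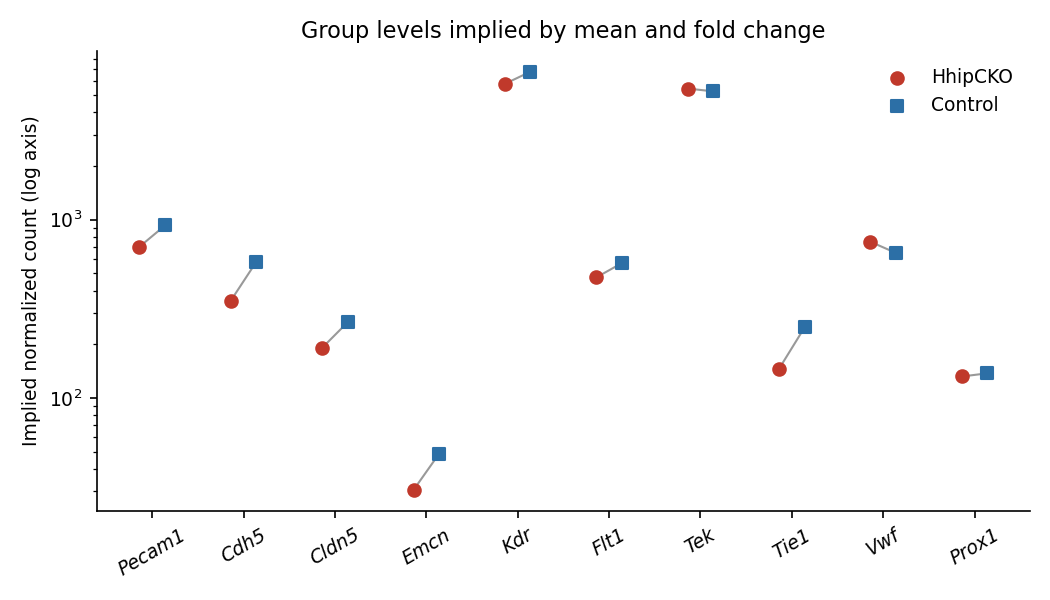
Normalized count (log axis) implied for HhipCKO (circles) and Control (squares) libraries by each member's mean and fold change; no value per library was at hand and no error is drawn. Kdr and Tek lie between 5246 and 6768 in both groups and the other members at 928 or less.

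Precision limited what could be seen. To pass at an adjusted p of 0.05, a gene needed a Wald statistic of at least 2.92 in size. With its SE, Pecam1 would have needed a 1.65-fold difference, Flt1 1.75-fold, Tek 1.999-fold, Kdr 2.001-fold, Vwf 2.09-fold, Cdh5 2.14-fold and Tie1 2.70-fold. A smaller estimated difference could not have passed. Read the other way, the 95% interval of Pecam1 reached from 1.85-fold lower to 1.06-fold higher in HhipCKO libraries and that of Cdh5 from 2.75-fold lower to 1.01-fold higher. Tek lay between 1.53-fold lower and 1.65-fold higher.

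The SEs also carry how far libraries of a group differ. The variation between libraries of a group that each SE implies, once counting error is taken off, had a median of 36.0% over the 10 members and ranged from 24.1% for Pecam1 to 66.5% for Emcn. Kdr and Tek, the abundant receptors, had 33.5% each. The median was 18.6% over all genes tested, 27.7% over the mesenchymal markers, 24.4% over pericyte markers, 42.8% over epithelial markers and 82.6% over leukocyte and platelet markers. These percentages derive from the dispersion in the authors' fit and are not SDs of observed values. The lists were not matched for abundance. Their median mean count was 494 for the members and 1810 for all genes tested. It was 173239 for mesenchymal, 8721 for pericyte, 5573 for epithelial and 507 for leukocyte and platelet markers. The part of abundance in the percentages was not tested.

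Of 49 other endothelial genes, covering the whole lineage and its vessel segments, 45 were tested, 1 rose, 1 fell and 43 did not pass, where 6.98% of all genes tested did. Without adjustment, 5 of the 49 had p below 0.05, against 13.5% of genes with a p-value. Their median log2 fold change was -0.11 over the 45 tested, 24 of them negative, against 0.02 over all genes tested. Aplnr, the apelin receptor of capillary endothelium, fell, with an implied level of 41.0 in HhipCKO and 112 in Control libraries. The authors' deposited table lists Aplnr at -1.45 ± 0.41 (adjusted p = 0.0115, DESeq Wald test), which makes it 2.73-fold lower, with 95% bounds of 1.57 and 4.75. Nr2f2, the transcription factor COUP-TFII, which specifies veins but is also expressed by lung fibroblasts, rose 1.56-fold, with 95% bounds of 1.17 and 2.08. Its implied level was 29554 in HhipCKO and 18947 in Control libraries, and the authors' deposited table lists it at 0.64 ± 0.21 (adjusted p = 0.0412, DESeq Wald test). At 5744 per kilobase, Nr2f2 stood far above Pecam1, and Aplnr at 20.7 stood below it. Levels of the 49 genes reached 18345 per kilobase, within the range of the mesenchymal markers. Which cells expressed them was not tested, so their counts and median need not describe endothelium. Nr2f2 no longer passed when the authors' Wald p-values were adjusted without a filter on low mean counts (adjusted p = 0.0698). Both genes missed the threshold against a minimum change of 1.5-fold or with Wald statistics divided by their robust SD.

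Genes of the whole endothelial lineage had values of both signs. Of 20, 19 were tested and none passed, where 6.98% of all genes tested did. Those tested had 12 positive and 7 negative values and a median of 0.02. Eng, a TGF-beta co-receptor that mesenchymal cells also express, and Esam, an adhesion molecule, had the highest mean counts, and the authors' deposited table lists Eng at -0.19 ± 0.13 and Esam at 0.02 ± 0.26 (adjusted p = 0.437 for Eng and 0.977 for Esam, DESeq Wald test). The ETS factors Erg and Fli1, picked here because their core motif is shown above, had values of 0.05 ± 0.21 and 0.02 ± 0.22 by the authors' deposited table. Without adjustment, 2 of the 20 had p below 0.05, in opposite directions, against 13.5% of genes with a p-value. These were Cd93, a surface lectin of endothelium, listed by the authors' deposited table at -0.62 ± 0.31, and Clec14a, a related lectin, at 0.46 ± 0.22 (adjusted p = 0.209 for Cd93 and 0.199 for Clec14a, DESeq Wald test). Both were named after their values were seen.

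Among segment markers, Aplnr was the 1 gene past the threshold of 8 tested capillary and aerocyte genes. For each segment list the share to set beside the count is 6.98%, that of all genes tested. Lists this small cannot be told from that share by 0 or 1 call. The abundant genes of that list, Tbx2 and Sema3c, are listed by the authors' deposited table at 0.33 ± 0.23 for Tbx2 and -0.05 ± 0.25 for Sema3c (adjusted p = 0.428 and 0.934, DESeq Wald test). Tbx2 is known from lung mesenchyme too. Per kilobase both genes stood above every endothelial member, Tbx2 at 18345 and Sema3c at 3613. None of 5 tested arterial genes passed, with 1 positive and 4 negative values, and the connexin gene Gja5 had 0.10 ± 0.41 and the ephrin gene Efnb2 -0.12 ± 0.30 by the authors' deposited table. In the venous list Nr2f2 was the 1 call of 6. Its most abundant gene, the adhesion molecule Vcam1, had 0.15 ± 0.15 by the authors' deposited table (adjusted p = 0.611, DESeq Wald test). At 15176 per kilobase, Vcam1 stood within the range of the mesenchymal markers, and which cells expressed it was not tested. Ackr1, the atypical chemokine receptor that marks venules, missed the threshold with the lowest value of all 49 genes, listed by the authors' deposited table as -2.21 ± 0.82 (adjusted p = 0.0738, DESeq Wald test). It was named after its value was seen, and its implied level was 24.4 in HhipCKO and 113 in Control libraries.

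Lymphatic genes, the group to which Prox1 belongs, did not pass either, where 6.98% of all genes tested did. All 7 were tested, their median was -0.20 and 6 were negative. Nrp2 and Pdpn, the most abundant, are a co-receptor and a glycoprotein that mesenchyme expresses as well, and the authors' deposited table lists Nrp2 at 0.02 ± 0.24 and Pdpn at -0.43 ± 0.31 (adjusted p = 0.973 and 0.442, DESeq Wald test). Outside the naming rule, the lymphatic VEGF receptor Flt4 and the hyaluronan receptor Lyve1 had values of -0.20 ± 0.38 and -0.39 ± 0.37 by the authors' deposited table. The chemokine Ccl21a belongs to a family of near-identical copies whose reads the counting may have split, so its value is uncertain and is not given.

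**Figure D4:**
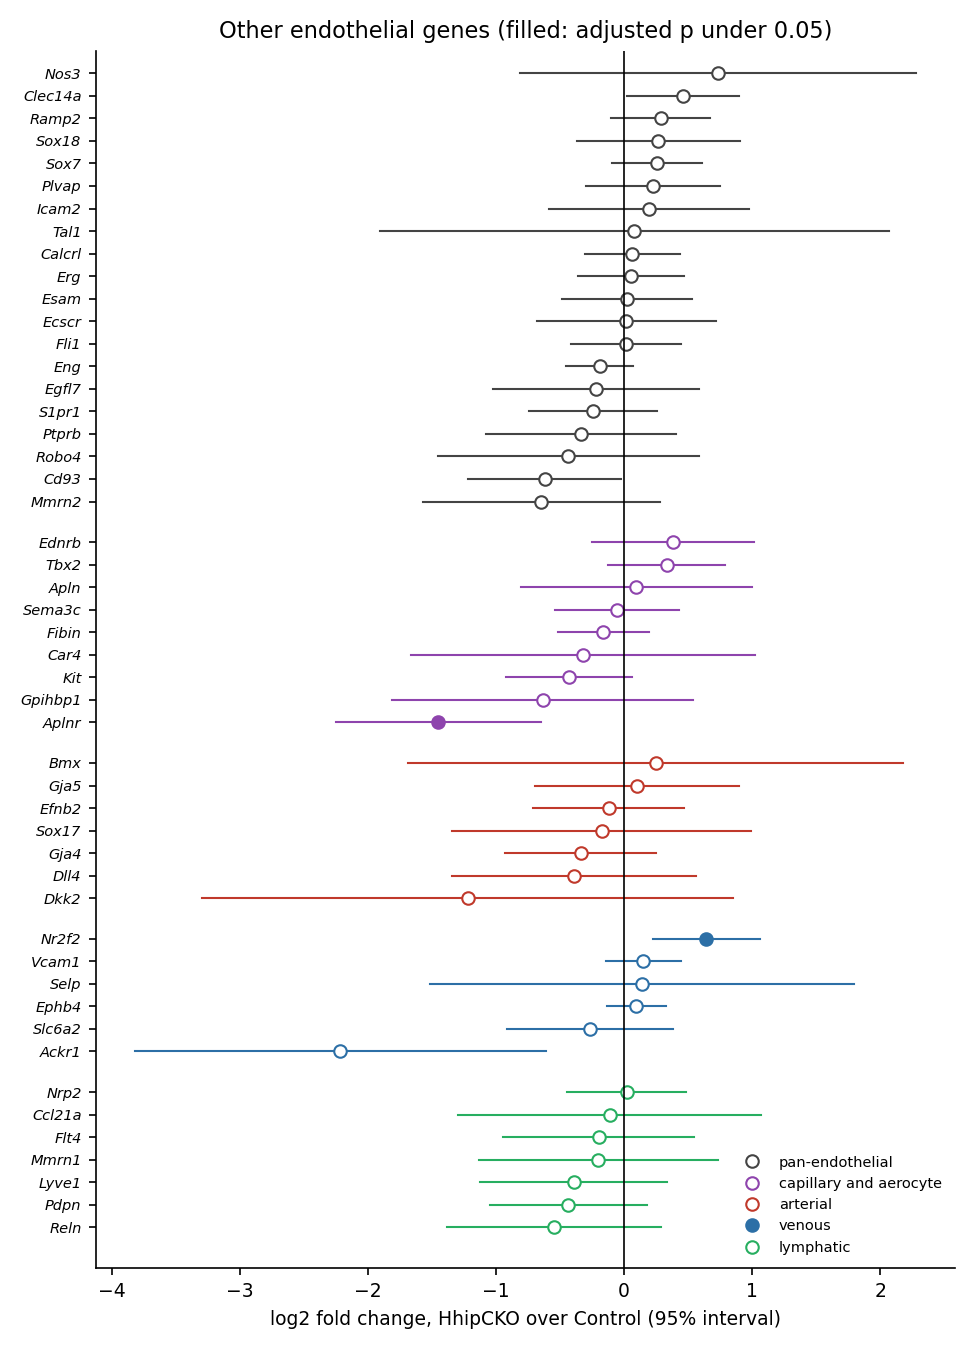
Log2 fold change of HhipCKO over Control with its 95% interval for 49 other endothelial genes, grouped by vessel segment; filled points passed an adjusted p of 0.05. Aplnr lies below 0 and Nr2f2 above it, and all other points are open.

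Several ligands of the member receptors were more abundant than the receptors. Per kilobase, Vegfa stood at 9225, Angpt1 at 6636 and Angpt2 at 1983, against 1059 for Kdr and 1148 for Tek. None of 11 tested genes for VEGF and angiopoietin family ligands, co-receptors and the phosphatase Ptprb passed, where 6.98% of all genes tested did. Vegfa, the principal ligand of Kdr and Flt1, and Nrp1, a co-receptor of Kdr, are listed by the authors' deposited table at -0.13 ± 0.24 for Vegfa and -0.05 ± 0.15 for Nrp1 (adjusted p = 0.813 and 0.903, DESeq Wald test). Angpt2, the ligand that can antagonise Tie2, came closest, at 0.43 ± 0.15 by the authors' deposited table (adjusted p = 0.0595, DESeq Wald test). Angpt1, the Tie2 agonist made by mesenchymal cells, had 0.10 ± 0.24 by the authors' deposited table. Both angiopoietin genes were named by their role.

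Markers of other cells moved unevenly beside the endothelial members. Of 12 pericyte markers, which label the mural cells wrapped around capillaries, 2 fell, 1 rose and 9 did not pass, where 3.92% of all genes tested fell and 3.06% rose. Their median was -0.43 and 11 were negative. The authors' deposited table lists Itga1 at -0.90 ± 0.17 (adjusted p = 4.84e-05), Trpc6 at -0.90 ± 0.27 (adjusted p = 0.0220) and Kcnj8 at 0.53 ± 0.13 (adjusted p = 0.00185, DESeq Wald test). The most abundant, Pdgfrb and Postn, had values of -0.31 ± 0.17 and -0.42 ± 0.19 by the authors' deposited table, neither past the threshold. The list's summed implied level per kilobase was 35079 in HhipCKO and 43542 in Control libraries, and that of the endothelial members was 2786 in HhipCKO and 3119 in Control libraries. Without Kdr and Tek the endothelial sum was 641 in HhipCKO and 849 in Control libraries. No pericyte marker was at 0, and the part of pericyte content in the endothelial values was not tested. The pericyte list was drawn up with earlier results of these data known and is no independent evidence of its direction.

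Leukocyte and platelet markers went the other way by point value. Of 12, 11 were tested and none passed, where 6.98% of all genes tested did. Positive values were found for 9 of the 12 markers, with a median of 0.59, and for 8 of the 11 tested, with a median of 0.54. The marker not tested, Itgam, is named outside the naming rule. It had a value of 1.06, a mean count of 582 and neither a p-value nor an adjusted p. The summed implied level per kilobase of all 12 markers was 45953 in HhipCKO and 17616 in Control libraries. The authors' deposited table lists the most abundant, Lyz2, at 1.53 ± 1.35 (adjusted p = 0.556, DESeq Wald test). Without Lyz2 the sum was 3138 in HhipCKO and 2819 in Control libraries. Ptprc at 0.54 ± 0.55 and Csf1r at -0.59 ± 0.39 by the authors' deposited table were not past the threshold. Platelet genes bear on Vwf and Pecam1, and all 4 of the list are given for that reason, outside the naming rule. By the authors' deposited table, Pf4 had 1.49 ± 0.86, Ppbp 1.28 ± 1.59, Gp9 0.64 ± 0.70 and Itga2b -0.08 ± 0.27, so that 3 of the 4 were positive and none passed. None of these markers was at 0, and their part in the values of Vwf and Pecam1 was not tested. Epithelial markers were 6 positive and 6 negative with a median of -0.02, none past the threshold that 6.98% of all genes tested passed. Their summed implied level per kilobase was 261979 in HhipCKO and 134060 in Control libraries. Without Sftpc it was 71346 in HhipCKO and 62517 in Control libraries. Mesenchymal markers had a median of -0.04. By the authors' deposited table, Epcam had 0.59 ± 0.48, Sftpc 1.41 ± 1.27 and Ager, of alveolar type 1 cells, -0.44 ± 0.37, while the collagen genes Col3a1 and Col1a2 had 0.02 ± 0.18 and -0.02 ± 0.19.

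The members lie on 8 chromosomes of GRCm38. In GENCODE M21 coordinates, Pecam1 (ENSMUSG00000020717) lies on chromosome 11 from 106654217 to 106750628, minus strand, and Cdh5 (ENSMUSG00000031871) on chromosome 8 from 104101625 to 104144511, plus strand. Cldn5 (ENSMUSG00000041378), a gene of 1 exon, lies on chromosome 16 from 18776847 to 18778262, plus strand, and Emcn (ENSMUSG00000054690) on chromosome 3 from 137341067 to 137432185, plus strand. Kdr (ENSMUSG00000062960) and Flt1 (ENSMUSG00000029648) share chromosome 5, minus strand, from 75932827 to 75978458 and from 147561604 to 147726011. Their longest transcripts have 30 exons each. Tek (ENSMUSG00000006386) and Tie1 (ENSMUSG00000033191) share chromosome 4, from 94739289 to 94874976 on the plus strand and from 118471191 to 118490061 on the minus strand. Vwf (ENSMUSG00000001930) lies on chromosome 6 from 125546774 to 125686679, plus strand, and Prox1 (ENSMUSG00000010175) on chromosome 1 from 190118035 to 190170714, minus strand. Prox1 shares 133 exonic bases with the antisense gene Prox1os. Whether reads were counted by strand is not stated, so reads of the pair from those bases cannot be told apart. No other member shares exonic bases with a gene annotated in GENCODE M21.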

How the data were processed

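Lung mesenchymal cells of 4 HhipCKO and 4 Control libraries were sequenced in bulk, and groups were taken from the sample titles. The submitters' processing notes name STAR, FastQC and DESeq, with GRCm38 (mm10) as the build. Tool versions, gene annotation, strandedness and the counting tool are not given in the sources used here. The authors' deposited table holds, per the file headers, the mean normalized count signal over all libraries, the log2 fold change and its SE, the Wald score, and the p-value with its adjusted value. The score equals log2 fold change over SE to within 2.56e-07. The table has no column of per-sample values, and depth per library is unknown.

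From the deposited values, 95% intervals, implied group levels and implied variation between libraries were computed (Python 3.11.15, scipy 1.17.1). Calls used the authors' adjusted p at 0.05. Levels per kilobase used the longest transcript in GENCODE M21, with 31555 gene identifiers matched. Length trends were removed by lowess with a span of 0.3 (statsmodels 0.14.6). The p-value adjustment, trend removal, minimum-change test and robust SD were tested on simulated data. Intervals, implied levels, implied variation and levels per kilobase were not. Where a symbol repeats, its most abundant entry was used; Vegfd had been entered in its list under the older symbol Figf. Members and lists were chosen with earlier results of these data known. The naming rule took all members, list genes past 0.05, the 2 most abundant of each list, the sort markers and Hhip; other genes are said to lie outside it. Alternatives were median centring, no filter, a mean count of at least 500, trend removal, a minimum 1.5-fold change and division by the robust SD.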

Additional observations from a re-analysis of the deposited data

How the results depend on the processing

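No alternative called an endothelial member: the count was 0 with median-centred fold changes, without a filter, at a mean count of at least 500 (5 members tested), with the length trend removed, against a minimum change of 1.5-fold and with Wald statistics divided by their robust SD of 1.53. Over all genes the minimum change left 8 calls and the division left 18, so a count of 0 there says little about the members. Of the other endothelial genes, the count higher in HhipCKO was 1, and 0 without a filter, under the minimum change and under the division. The count lower in HhipCKO was 1, and 0 under the minimum change, under the division and with means of 500 or more, where Aplnr is not tested. The median of the other endothelial genes turned to 0.019 at that minimum, and Prox1 turned to 0.15 with the length trend removed; the cause was not tested. Tek over Pecam1 per kilobase was 8.66 with exons merged, against 4.84. Median centring shifted all values by 0.02. No paired analysis was possible because the table carries no value per library, and leaving out replicates, size factor alternatives and count models were not run for that reason. Precision rests on the authors' fit.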
